A study of Mus musculus with 3 samples.

Results

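The subunits of the TRiC chaperonin were described in L929 cells, a mouse fibroblast line, with Rrm2 knocked down or not. The members were 8 genes taken by name, Tcp1, Cct2, Cct3, Cct4, Cct5, Cct6a, Cct7 and Cct8, out of 20716 genes in the CBTi-seq table and 55295 in the 3′ tables, and all 8 had counts in every column. The study set cells with an Rrm2 knockdown against control cells and sequenced both with CBTi-seq and with a 3′ method, which reads the ends of transcripts. CBTi-seq gave 1 sample with 10 columns named knock and 10 named control, and the 3′ method gave 1 library labelled knock and 1 labelled control, with 8 columns each. Single cells were picked into lysis buffer with a capillary, per the labels' protocols, and CBTi-seq columns are called cells after that text, although their names do not say so. The sources used here do not give the knockdown agent or whether the cells were 1 clone.

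TRiC, also called CCT, is a cytosolic chaperonin built of stacked rings that close over a newly made protein and use ATP to help it fold. Each ring holds 8 related but distinct subunits, 1 copy of each, in a fixed order, so the protein complex itself has equal subunit numbers. Its best known clients are actin and tubulin, which are abundant in fibroblasts, and prefoldin hands these chains to it. The 8 genes lie on 8 chromosomes of GRCm38, in GENCODE vM21. Their places are Tcp1 (ENSMUSG00000068039) at chr17:12915701-12925067, plus strand, Cct2 (ENSMUSG00000034024) at chr10:117051001-117063814, minus strand, Cct3 (ENSMUSG00000001416) at chr3:88297116-88321767, plus strand and Cct4 (ENSMUSG00000007739) at chr11:22990519-23003780, plus strand. The others are Cct5 (ENSMUSG00000022234) at chr15:31590800-31601804, minus strand, Cct6a (ENSMUSG00000029447) at chr5:129786998-129846371, plus strand, Cct7 (ENSMUSG00000030007) at chr6:85451514-85468475, plus strand and Cct8 (ENSMUSG00000025613) at chr16:87483326-87495873, minus strand.

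Rrm2, the small subunit of ribonucleotide reductase and the gene named as the knockdown target, was looked at first. It stood at 350.1 CPM (counts per 1000000 counts of all genes) in the CBTi-seq knock cells and at 480.9 CPM in the control cells, which is 72.8% of the control level. In the 3′ libraries it went against the labels, with 148.1 CPM in the library labelled knock and 39.1 CPM in the library labelled control. For this reason each 3′ library is called by its label, and each 3′ direction is one between labels. Counts per column ran from 153051 to 735871 in the CBTi-seq knock cells, from 41570 to 846819 in the control cells, from 814960 to 1973137 in the library labelled knock and from 399393 to 2496457 in the library labelled control. Of 11 fibroblast markers, 6 reached 20 CPM in both CBTi-seq groups, while Thy1, Dcn and Lum are not listed in the CBTi-seq table, and the summed level of the 11 ran from 1438 to 2555 CPM over the knock columns and from 1503 to 2592 CPM over the control columns. By the 3′ method 5 of the 11 did so in the library labelled knock and 3 in the library labelled control, with summed levels of 1602 to 1793 CPM and 719 to 884 CPM per column. Of 5 epithelial markers, 1 reached 20 CPM in each 3′ library, and their sum ran from 96.8 to 181 CPM per column in the library labelled knock and from 139 to 252 CPM in the library labelled control. That 1 was Cdh1, at 110.5 CPM in the library labelled knock and 188.1 CPM in the library labelled control. Krt8 stood at 6.11 CPM and Krt19 at 4.47 CPM in the library labelled knock, both had no count in the library labelled control, and Krt18 had none in either. Of 5 immune markers, 1 (Cd68) reached 20 CPM in each 3′ library, and their sum ran from 136 to 190 CPM in the library labelled knock and from 65.5 to 120 CPM in the library labelled control, with Ptprc at 0 in both. None of 4 endothelial markers reached 20 CPM in a 3′ library. Their sum ran from 18.4 to 47.9 CPM per column in the library labelled knock and from 21.8 to 43.8 CPM in the library labelled control. CBTi-seq does not list these 4 genes, nor Cdh1, Krt18, Ptprc or Adgre1. Its epithelial sum reached 5.05 CPM in the knock cells and 14.5 CPM in the control cells. Its immune sum ran from 10.6 to 50.1 CPM over the knock columns and from 18.7 to 181 CPM over the control columns. Cd68 stood at 19.96 CPM in the knock cells and 43.5 CPM in the control cells, where its highest column was at 162.9 CPM. The part of these markers in the 3′ differences was not tested. Both CBTi-seq groups are sets of columns from a single sample, each 3′ library is a sample of its own, and columns are not replicates, so no difference was tested. Levels carry exact Poisson 95% intervals and ratios exact conditional ones, which cover counting error only and leave out the variation between columns.

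The promoters of 3 members are shown because they carry the clearest contrasts in the values that follow. Cct3 was higher in the CBTi-seq knock cells and in the 3′ library labelled knock, Cct5 was the highest subunit in every group, and Cct2 was lower in the 3′ library labelled knock. Each run is the 250 bases before the RefSeq start on GRCm38.p6, written in the direction of the gene. Capitals mark matches, on either strand, to the motifs listed after them. Cct3 lies on the plus strand (chr3:88296885-88297134), Cct5 on the minus strand (chr15:31601847-31602096) and Cct2 on the minus strand (chr10:117063853-117064102).
Cct3: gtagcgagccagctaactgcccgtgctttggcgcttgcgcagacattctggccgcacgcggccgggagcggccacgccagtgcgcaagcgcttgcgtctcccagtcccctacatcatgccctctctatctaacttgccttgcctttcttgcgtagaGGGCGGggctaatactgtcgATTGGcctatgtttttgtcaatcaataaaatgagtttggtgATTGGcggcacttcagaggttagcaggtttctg
Cct5: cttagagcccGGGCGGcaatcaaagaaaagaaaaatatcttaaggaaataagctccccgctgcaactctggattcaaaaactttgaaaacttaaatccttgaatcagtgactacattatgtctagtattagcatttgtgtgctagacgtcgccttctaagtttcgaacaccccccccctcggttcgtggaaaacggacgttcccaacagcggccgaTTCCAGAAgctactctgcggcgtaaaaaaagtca
Cct2: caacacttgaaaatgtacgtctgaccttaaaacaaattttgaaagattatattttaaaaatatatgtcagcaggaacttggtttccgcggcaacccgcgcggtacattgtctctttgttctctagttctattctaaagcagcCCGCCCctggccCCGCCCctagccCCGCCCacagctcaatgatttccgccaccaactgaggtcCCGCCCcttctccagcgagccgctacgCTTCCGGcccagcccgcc

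Of the 8 members, 7 had a RefSeq promoter entry, and Cct4 is named only. The GC box GGGCGG was found in 7 of the 7, against 32.7% of 32851 mouse promoters of the same length. The CCAAT box was found in 4, against 33.8% of all promoters. These were Tcp1 with 1 match, Cct3 and Cct6a with 2 each, and Cct7 with 3. In the Cct3 sequence above both boxes read ATTGG, the reverse strand of CCAAT, and begin 74 and 33 bases before the start. The ETS site CCGGAAG was found in Cct2 and Cct8, against 6.91% of all promoters, and Cct2 also held 4 GC boxes. The inner part of a heat shock element, TTCNNGAA, was found in Cct5 alone, 34 bases before the start, against 7.17% of all promoters, and its other arrangement, GAANNTTC, in none, against 6.69%. The E-box CACGTG (6.02% of all promoters) and the NRF1 site (0.782%) were found in none. No 2 matches overlapped. The GC content of the 7 windows ran from 45.2% in Cct5 to 66.4% in Cct7, with a median of 52.4% over all promoters. These are matches of letters and not sites shown to be bound.

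In CBTi-seq the RNA of all 8 subunits was somewhat higher in the knock cells than in the control cells. The summed TRiC level was 4148 CPM in the knock cells (14546 counts, 95% interval 4080 to 4216), against 3569 CPM in the control cells (13784 counts, 3510 to 3629). The log2 ratio was 0.22 (0.18 to 0.25), a fold of 1.16. Per column the sum ran from 3663 through a median of 4172 to 4888 CPM in the knock cells, and from 2820 through 3602 to 4739 CPM in the control cells. All 10 knock columns lay above the control median, but 1 alone lay above the highest control column, so the groups overlapped. Control column 1, the shallowest with 41570 counts, held the highest control value of the sum and of Tcp1, Cct4, Cct5, Cct7 and Cct8, and the lowest of Cct2 and Cct3. Without it the highest control sum was 4576 CPM, which 2 knock columns exceeded, and the log2 ratio stayed at 0.22. It was 0.25 without knock column 10, the deepest knock column.

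Cct6a and Cct3 had the largest CBTi-seq ratios. Cct6a, which with Cct2 makes contacts across the ring interface, ran from 392.03 through 429.7 to 514.3 CPM over the knock columns and from 235.7 through 345.9 to 444.6 CPM over the control columns. All 10 of its knock columns were above the control median and 2 were above every control column. Its log2 ratio was 0.37 (0.27 to 0.48). Cct3, the gamma subunit, ran from 418.8 through 518.9 to 601.7 CPM in the knock cells and from 240.6 through 401.7 to 546.9 CPM in the control cells. All 10 of its knock columns were likewise above the control median, and its log2 ratio was 0.35 (0.25 to 0.44).

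Cct8, Cct4, Tcp1 and Cct5 lay in the middle. Cct8, whose worm counterpart promotes assembly of the complex, ran from 388.5 through 489.2 to 624.5 CPM in the knock cells and from 369.3 through 426.4 to 697.6 CPM in the control cells, with a log2 ratio of 0.27 (0.17 to 0.37). Cct4, a subunit that in its human form can build rings alone, ran from 462.0 through 507.9 to 624.5 CPM in the knock cells and from 278.8 through 444.6 to 793.8 CPM in the control cells, with a log2 ratio of 0.22 (0.12 to 0.32). For both genes the highest of all 20 columns was the shallow control column 1. Tcp1, the subunit first known as a t-complex polypeptide of the mouse, ran from 433.9 through 616.4 to 792.7 CPM in the knock cells and from 382.9 through 567.4 to 986.3 CPM in the control cells. Its log2 ratio was 0.19 (0.10 to 0.28), with 7 of 10 knock columns above the control median. Cct5, the other subunit that can build rings alone in its human form, ran from 562.6 through 754.8 to 921.3 CPM in the knock cells and from 522.2 through 670.1 to 914.1 CPM in the control cells, with a log2 ratio of 0.19 (0.11 to 0.27). Between 9 and 10 knock columns of Cct8, Cct4 and Cct5 were above the control median, yet none of these genes had groups that stood apart.

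Cct2 and Cct7 had the smallest CBTi-seq ratios. Cct2 ran from 345.1 through 373.9 to 456.2 CPM in the knock cells and from 120.3 through 354.9 to 444.9 CPM in the control cells. Cct7, the eta subunit, ran from 398.6 through 484.7 to 510.4 CPM in the knock cells and from 336.7 through 445.3 to 601.4 CPM in the control cells. Their log2 ratios were both 0.09, with intervals that included 0 (-0.02 to 0.20 for Cct2 and -0.01 to 0.18 for Cct7).

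**Figure D1:**
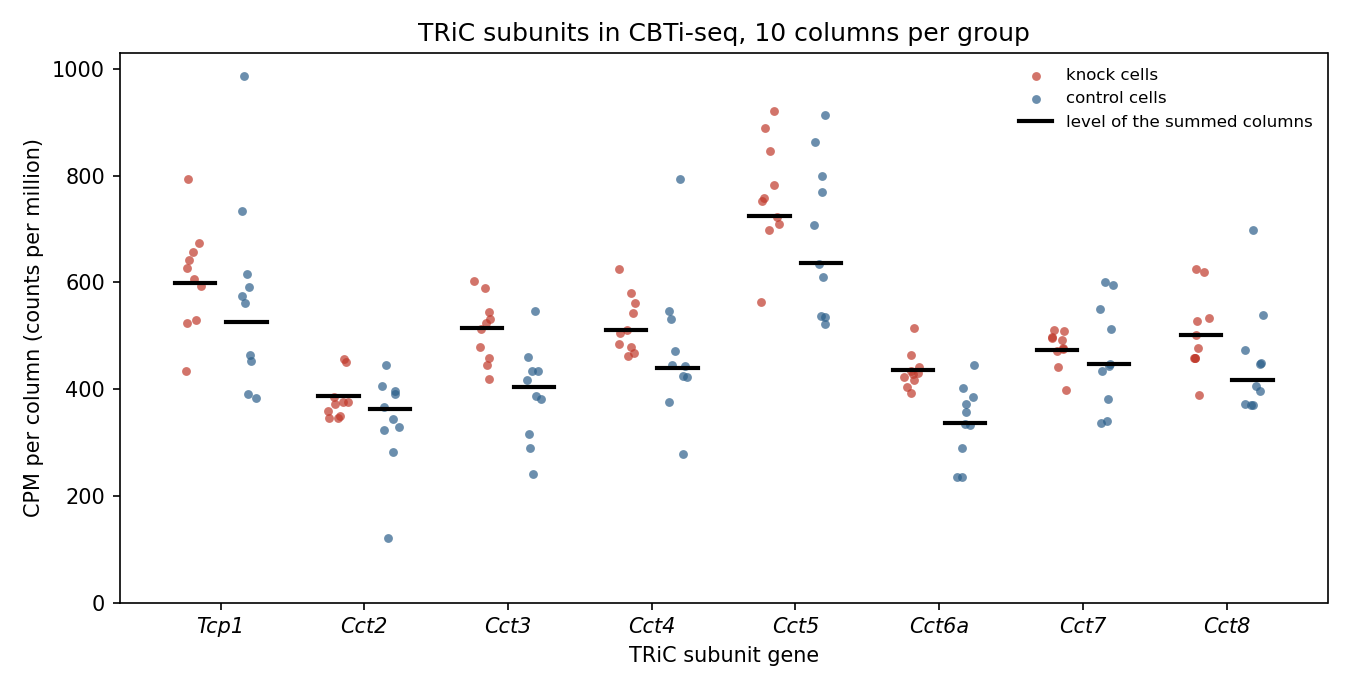
CPM of each TRiC subunit in the 10 knock and 10 control columns of CBTi-seq; each point is a column and each black bar is the level of the summed columns. The bar of the knock cells is above that of the control cells for all 8 genes, and the points of the groups overlap for all 8.

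Against all genes, the direction was shared by the members and the size was small. Of 5243 genes at 50 CPM or more, 49.1% had a log2 ratio above 0, against 8 of 8 members. A log2 ratio of at least 0.25 was found in 17.3% of these genes and in 3 of the 8 members, Cct3, Cct6a and Cct8. Cct8 was under 0.25 with the mean of the columns' CPM (0.16), after thinning to 50000 counts (0.248), in columns of 150000 to 400000 counts (0.22) and without knock column 2 or 8 or control column 3 or 9 (0.22 to 0.24). Tcp1 was at 0.08 with the mean of the columns' CPM. A ratio of -0.25 or below was found in 22.6% of genes and in no member, and a ratio of at least 1 in size in 1.01% of genes and in no member. The groups' columns did not overlap for 0.191% of genes and for no member. The median log2 ratio was 0.20 over the members and -0.01 over all these genes. The 8 members' columns come from the same cells, so their shared direction is not 8 separate observations.

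By the 3′ method the summed TRiC level was also higher in the library labelled knock, but the subunits did not share a direction. The sum was 2728 CPM in the library labelled knock (24992 counts, 2694 to 2762), against 2445 CPM in the library labelled control (17282 counts, 2409 to 2482). The log2 ratio was 0.16 (0.13 to 0.19). Per column it ran from 2683 through 2725 to 2764 CPM in the library labelled knock and from 2358 through 2438 to 2574 CPM in the library labelled control, without overlap. The median log2 ratio of all 2826 genes at 50 CPM or more was 0.14 in the same comparison, so the summed TRiC level was higher by about as much as the typical gene. With TMM factors, which bring that median to about 0, the TRiC ratio was 0.019, and with median-of-ratios factors it was -0.0011.

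Cct3, Cct7, Tcp1 and Cct5 were higher in the library labelled knock. Cct3 ran from 286.2 through 330.2 to 349.7 CPM in the library labelled knock and from 166.3 through 232.5 to 270.4 CPM in the library labelled control. Its columns did not overlap and its log2 ratio was 0.50 (0.41 to 0.59), the largest of the 8. Cct7 ran from 329.4 through 360.3 to 407.5 CPM in the library labelled knock and from 246.1 through 278.8 to 343.0 CPM in the library labelled control, with a log2 ratio of 0.38 (0.30 to 0.46). Of its 8 columns labelled knock, 7 were above every column labelled control. Tcp1 ran from 87.5 through 96.4 to 116.6 CPM in the library labelled knock and from 64.5 through 82.2 to 95.03 CPM in the library labelled control, with a log2 ratio of 0.30 (0.15 to 0.45). Cct5 ran from 947.2 through 978.2 to 1041 CPM in the library labelled knock and from 824.1 through 867.3 to 888.5 CPM in the library labelled control. Its log2 ratio of 0.19 (0.14 to 0.24) was close to the median of all genes, although its columns did not overlap. Columns within each 3′ library differed little, so a small ratio could separate them.

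Cct2 was the one subunit whose interval lay below 0. It ran from 234.7 through 249.4 to 273.6 CPM in the library labelled knock and from 245.4 through 281.2 to 329.1 CPM in the library labelled control, and its log2 ratio was -0.19 (-0.27 to -0.10). None of its 8 columns labelled knock reached the median of those labelled control. For Cct4, Cct6a and Cct8 the interval included 0. Cct4 had a log2 ratio of -0.04 (-0.12 to 0.03), with 349.8 CPM in the library labelled knock and 360.0 CPM in the library labelled control. Cct6a had -0.02 (-0.14 to 0.10), with 147.5 and 149.3 CPM in the libraries labelled knock and control. Cct8 had 0.04 (-0.06 to 0.14), with 203.1 and 197.1 CPM in the same order. The sign of Cct8 was turned in all 5 other scalings of the 3′ counts, with values from -0.12 to -0.02. After thinning to 50000 counts per column the signs of Cct4 (0.07) and Cct6a (0.11) were turned as well, and Tcp1 was at 0.07 and Cct5 at 0.10.

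**Figure D2:**
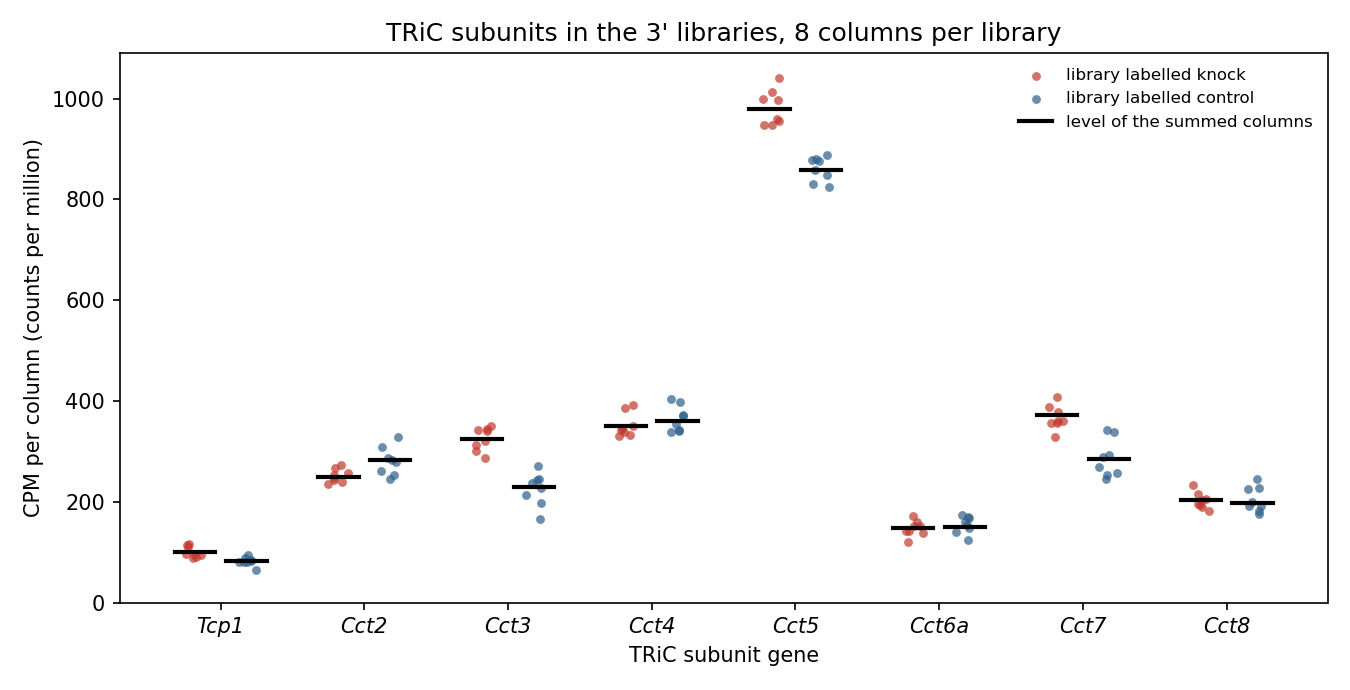
CPM of each TRiC subunit in the 8 columns of the 3′ library labelled knock and the 8 of the library labelled control; each point is a column and each black bar is the level of the summed columns. Cct3 and Cct5 show groups without overlap, and Tcp1 sits near 100 CPM while Cct5 sits above 800 CPM in every column.

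By label, 57.7% of genes at 50 CPM or more had a log2 ratio above 0, against 5 of 8 members. A ratio of at least 0.25 was found in 43.5% of genes and in 3 members, and one of -0.25 or below in 29.9% of genes and in no member. With TMM factors Cct3 (0.36) was the 1 member at 0.25 or more, with Cct7 at 0.24 and Tcp1 at 0.16, and Cct2 was at -0.33. The shares of genes given here are for CPM, and were not computed with TMM factors. A ratio of at least 1 in size was found in 17.9% of genes and in no member. The columns did not overlap for 36.3% of genes and for 2 members, Cct3 and Cct5. The median log2 ratio of the members was 0.12.

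The 2 methods gave the subunits in different order by ratio. Cct3 had log2 ratios of 0.35 in CBTi-seq and 0.50 in the 3′ libraries. Cct6a had the largest ratio in CBTi-seq, 0.37, and -0.02 in the 3′ libraries. Cct7 had the smallest in CBTi-seq, 0.09, and 0.38 in the 3′ libraries. Tcp1 and Cct5 had 0.19 each in CBTi-seq, with 0.30 and 0.19 in the 3′ libraries. Whether a subunit's ratio differed between the methods was not tested, since neither method has replicates. Turning the labels of the 3′ libraries would reverse the sign of every 3′ ratio.

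**Figure D3:**
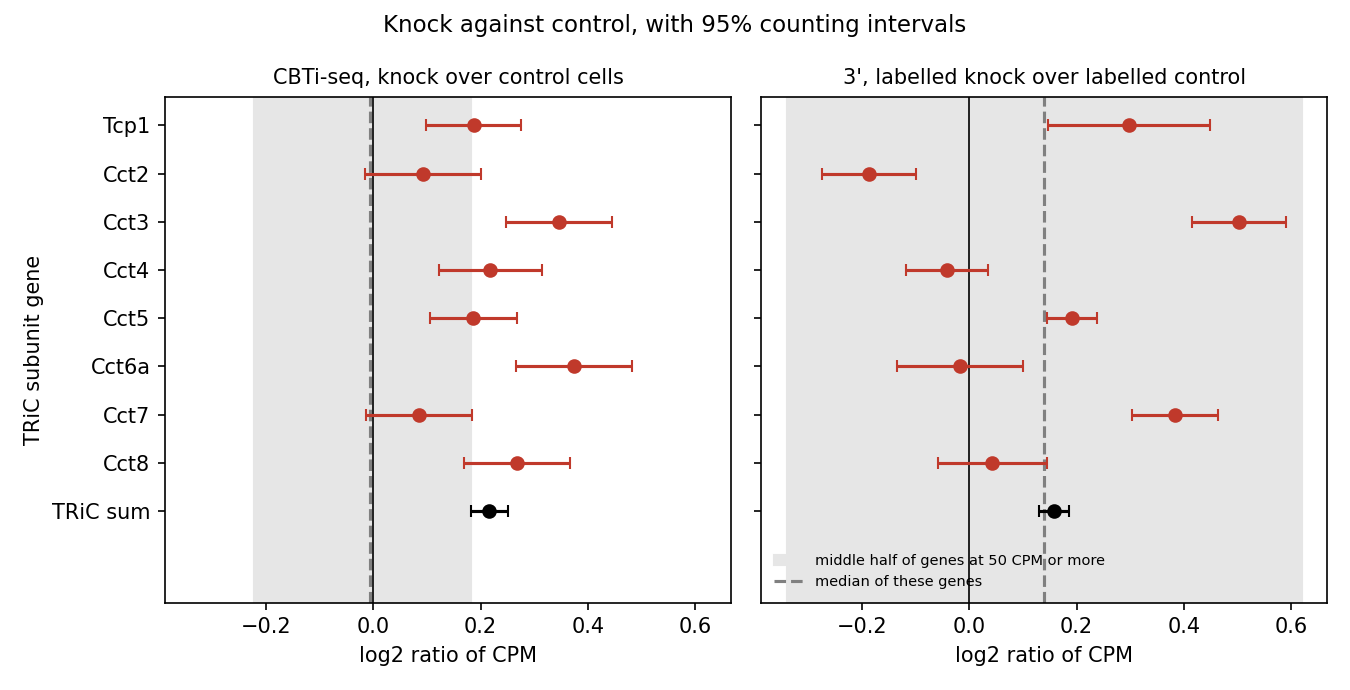
Log2 ratio of knock over control for each subunit and for their sum, in CBTi-seq on the left and in the 3′ libraries by label on the right, with 95% intervals for counting error; the dashed line is the median of genes at 50 CPM or more and the grey band their middle 50%. All 8 CBTi-seq ratios lie above the median of -0.01, while the 3′ ratios lie on both sides of the median of 0.14.

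The levels were also compared between genes, per kb of transcript, to describe the stoichiometry of the subunit RNA. Lengths were those of the longest coding transcript in GENCODE vM21, from 1853 bases for Cct5 to 2484 for Cct4. For Cct6a, annotated there without a coding transcript, the longest spliced transcript of 2454 bases was used. Cct5 was highest, with 391 CPM per kb in the knock cells and 344 CPM per kb in the control cells. Cct6a was lowest, with 178 CPM per kb in the knock cells and 137 CPM per kb in the control cells. The ratio of highest to lowest was 2.20 in the knock cells and 2.51 in the control cells. The highest count of any gene was 399 in the shallowest CBTi-seq column (41570 counts) and 512 at 153051 counts. It was no more than 638 in any deeper column, up to 846819 counts. Cct5 reached 414 in a knock column and 455 in a control column. With counts corrected for collisions among 700 UMIs the ratio was 2.43 in the knock cells and 2.85 in the control cells.

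Between these ends the CBTi-seq order was not firm. In the knock cells Cct3 (260 CPM per kb) and Tcp1 (244 CPM per kb) followed Cct5, and then Cct8, Cct4, Cct2 and Cct7 lay between 210 and 194 CPM per kb. Cct5 was above Cct3, and Tcp1 above Cct8, in 10 of 10 knock columns. Neighbours among Cct8, Cct4, Cct2 and Cct7 held their order in 4 to 7 of the 10, so they did not differ beyond the spread of the columns. In the control cells Tcp1 (215 CPM per kb) and Cct3 (205 CPM per kb) followed Cct5, and Cct2, Cct7, Cct4 and Cct8 lay between 186 and 174 CPM per kb. Cct5 was above Tcp1, and Cct8 above Cct6a, in 10 of 10 control columns, while the pairs from Cct2 to Cct8 held their order in 5 to 7. Over the 8 genes the rank correlation of knock with control levels per kb was 0.76 (Spearman), as a description of 8 genes that share their libraries.

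The 3′ libraries gave a much wider range. Cct5 stood at 529 CPM per kb in the library labelled knock and 463 CPM per kb in the library labelled control, and Tcp1 at 41.4 CPM per kb in the library labelled knock and 33.7 CPM per kb in the library labelled control. The ratio of highest to lowest was 12.8 in the library labelled knock and 13.7 in the library labelled control. Cct2, Cct3, Cct4 and Cct7 lay between 127 and 165 CPM per kb in the library labelled knock and between 116 and 145 CPM per kb in the library labelled control. Below them came Cct8 with 84.8 CPM per kb in the library labelled knock and 82.3 in the library labelled control, and Cct6a with 60.1 CPM per kb in the library labelled knock and 60.8 in the library labelled control. The steps from Cct8 to Cct6a and from Cct6a to Tcp1 were seen in 8 of 8 columns of both libraries. Since a 3′ method counts transcript ends, a level per kb is not its natural scale, and without length scaling the ratio of highest to lowest was 9.68 in the library labelled knock and 10.4 in the library labelled control.

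As a share of all TRiC counts, with no length scaling, the makeup differed little between knock and control in CBTi-seq. Cct5 held 17.5% in the knock cells and 17.8% in the control cells, and Tcp1 14.4% in the knock cells and 14.7% in the control cells. The largest differences were 1.09 percentage points for Cct6a, 1.06 for Cct3 and -1.09 for Cct7. By the 3′ method Cct5 alone held 35.9% in the library labelled knock and 35.1% in the library labelled control, and Tcp1 held 3.71% in the library labelled knock and 3.37% in the library labelled control. Cct3 was 2.53 points and Cct7 1.97 points higher in the library labelled knock, where Cct2 was lower at 9.13% against 11.6% and Cct4 lower at 12.8% against 14.7% in the library labelled control.

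**Figure D4:**
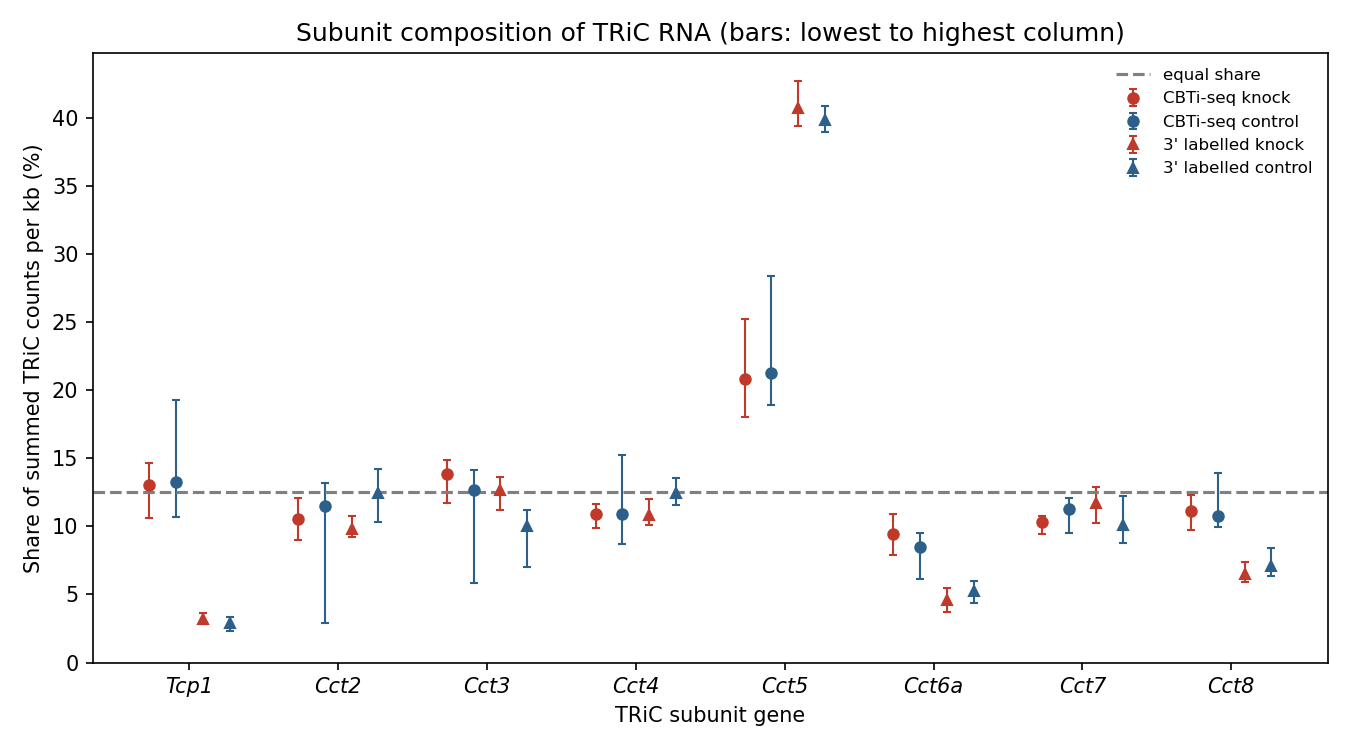
Share of each subunit in the summed TRiC counts per kb, for CBTi-seq knock and control cells (circles) and the 3′ libraries labelled knock and control (triangles); bars run from the lowest to the highest column and the dashed line is an equal share of 12.5%. Cct5 holds 20.8% and 21.2% in the CBTi-seq knock and control cells but 40.7% and 39.8% in the 3′ libraries labelled knock and control, and Tcp1 holds 13.0% and 13.3% in CBTi-seq but 3.18% and 2.90% by the 3′ method.

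Set side by side, CBTi-seq gave higher TRiC levels in CPM than the 3′ method. The log2 ratio of CBTi-seq over 3′ was 0.60 (0.58 to 0.63) for knock and 0.55 (0.51 to 0.58) for control, by label. Each method is scaled to its own total, and with totals that leave out mitochondrially encoded and ribosomal protein genes these were 0.42 and 0.21. A higher CBTi-seq level was not particular to TRiC. Protein-coding genes at 50 CPM or more by CBTi-seq had a median log2 ratio of 1.15 for knock and 1.66 for control (1 CPM added). Choosing genes by their CBTi-seq level can raise that median. Cct5 was the one subunit with more CPM by the 3′ method, with a log2 ratio of -0.43 for both knock and control. No gene passed 638 counts in a CBTi-seq column, where Cct5 reached 455, while the highest gene of a 3′ column had 10578 to 67257. The part of this limit in the ratios between the methods was not tested. Tcp1 had the widest gap, 5.91-fold (5.47 to 6.39) for knock and 6.38-fold (5.81 to 7.004) for control. Cct6a followed with log2 ratios of 1.56 for knock and 1.17 for control, and Cct8 with 1.31 and 1.08. Cct2, Cct3, Cct4 and Cct7 lay between 0.35 and 0.66 for knock and between 0.29 and 0.82 for control.

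Tcp1 and Cct8 are the members whose 3′ ends run into a gene on the other strand. Tcp1 shares 571 exon bases with Acat3, a thiolase gene that faces it, and one of its coding transcripts has 99% of its last 300 bases over opposite-strand exons. The longest one, whose length was used above, has 21%. The class of 50% or more described next goes by the coding transcript with the highest share, so it includes Tcp1. Cct8 shares 192 bases with Usp16, a ubiquitin protease gene, or 64% of its last 300. Cct6a has no such overlap at its end, but shares 452 bases with Psph, a serine synthesis gene, at its start. Of the genes that reached 50 CPM by CBTi-seq, those with at least 50% of the last 300 bases over opposite-strand exons had a median log2 ratio of CBTi-seq over 3′, with 1 CPM added, of 2.22 for knock (422 genes) and 2.73 for control (446 genes). The other genes had 1.08 for knock (4362 genes) and 1.59 for control (4688 genes). Both sets were chosen by their CBTi-seq level, the upper side of this ratio, which can raise their medians. Cct8, at 1.31 for knock and 1.08 for control without the added CPM, lay under the overlapping genes' median in both. For control it also lay under the 1.59 of the other genes. Over all these genes, 18.4% for knock and 27.0% for control had a ratio at or above that of Tcp1. The part of the overlap in the gap of Tcp1 and Cct8 was not tested, and the sources used here do not say whether the counting used strand.

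The levels of these overlapping genes were therefore read beside those of the members. Acat3 stood at 193.9 CPM in the CBTi-seq knock cells and 190.1 CPM in the control cells, but at 4.802 CPM in the 3′ library labelled knock and 2.41 CPM in the library labelled control. Acat2, whose transcripts match 445 bases of Tcp1 at 98.7% identity, stood at 112.3 CPM in the CBTi-seq knock cells and 170.4 CPM in the control cells, with 83.6 CPM in the library labelled knock and 24.6 CPM in the library labelled control. Mrpl18, a mitochondrial ribosomal protein gene that shares 141 exon bases with the start of Tcp1, had a log2 ratio of 0.13 in CBTi-seq and 1.90 in the 3′ libraries. Psph had 0.61 in CBTi-seq and 0.28 in the 3′ libraries, beside 0.37 and -0.02 for Cct6a. Usp16 had 0.19 and 1.11, beside 0.27 and 0.04 for Cct8. Pradc1, which shares 214 exon bases with the start of Cct7, was low in CBTi-seq, with 23.7 CPM in the knock cells and 28.2 CPM in the control cells. Its 3′ level was 35.6 CPM in the library labelled knock and 3.96 CPM in the library labelled control, a log2 ratio of 3.17 beside 0.38 for Cct7. The values of Tcp1, Cct6a, Cct7 and Cct8 are uncertain to the extent that reads of these neighbours were counted with them. Introns of Tcp1 hold the snoRNA genes Gm26130 and Snora20, and those of Cct6a hold Gm23245 and Snora15. The processed pseudogene Cct3-ps1 (91.4% identity over 1650 bases) had 8 counts in the CBTi-seq knock cells and 4 in the control cells, and Gm5380, which matches Cct7 at 93.5% over 569 bases, had 9 in the knock cells and 5 in the control cells. Both had 0 counts in the 3′ libraries, so few counts stood on these copies.

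Across the columns of CBTi-seq the subunits tended to move together, though not all of them did. The median correlation of CPM between 2 subunits, on the log2 scale with 1 CPM added, was 0.53 over the 10 knock columns and 0.48 over the 10 control columns (28 pairs each). The pairs ran from -0.30 to 0.89 in the knock cells and from -0.60 to 0.93 in the control cells. Each subunit against the sum of the other 7 had a median of 0.69 in the knock cells and 0.75 in the control cells. These values ran from -0.18 to 0.85 in the knock cells and from -0.36 to 0.95 in the control cells. The control columns include the shallow column 1. Over all genes the median correlation with the summed TRiC level was -0.02 in the knock cells and -0.25 in the control cells. Within the knock and control columns, Cct7 (0.92), Tcp1 (0.92) and Cct8 (0.89) followed the sum most closely on average, while Cct6a (0.29) and Cct2 (0.10) followed it least; these 8 values include the gene itself in the sum. The columns share their library, and the rank correlation of the summed TRiC level with the column total was -0.30 in the knock cells and -0.37 in the control cells, against a median of 0.21 and 0.25 over all genes, and the part of depth in the shared movement was not tested. By the 3′ method the median pair correlation was -0.07 in the library labelled knock and 0.09 in the library labelled control, over 8 columns each. A subunit against the sum of the other 7 had a median there of -0.64 in the library labelled knock and 0.18 in the library labelled control.

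The subunits had smaller coefficients of variation between columns than the typical gene at 50 CPM or more. Counting error alone makes this coefficient smaller at higher levels, and the genes were not matched for level. In CBTi-seq the median coefficient of the subunits was 11.2% in the knock cells, against 27.2% over all these genes. It was 22.8% in the control cells, against 40.7% over all genes. Set against counting error, their variance was 1.98 times it in the knock cells and 5.05 times it in the control cells (medians), with 2.52 and 4.23 over all genes. By the 3′ method the same medians were 1.61 times in the library labelled knock and 1.73 times in the library labelled control, with 2.48 and 2.51 over all genes. The sum of the 8 had a variance of 11.4 times counting error in the CBTi-seq knock cells and 27.5 times in the control cells, but 0.299 and 1.14 times in the 3′ libraries labelled knock and control. The summed TRiC level thus differed between CBTi-seq columns well beyond counting error, and between the columns of a 3′ library not detectably so.

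The 5 genes outside the members that followed the summed TRiC level most closely were listed for the 20 CBTi-seq columns. They were Odc1, the first enzyme of polyamine synthesis (mean correlation within groups 0.86), Hspd1, the mitochondrial chaperonin (0.85), Dnajc2, a chaperone partner at the ribosome (0.77), Rpn1, a subunit of the oligosaccharyltransferase (0.76), and the pseudogene Rps2-ps10 (0.76). They were picked as the 5 highest among all genes at 50 CPM or more outside the members, so high values follow from the choice. The control columns include the shallow column 1, which held the highest control sum, 4739 CPM, and its weight in these correlations was not tested. Over the 16 columns of the 3′ libraries the 5 closest were Arl1 (0.86), Cyb5b (0.79), Nagk (0.77), Mrpl54 (0.73) and Chchd5 (0.72). None of the 5 was shared between the methods.

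Genes that work with TRiC were read from lists of partners and clients, over members whose mean CPM of knock and control was 20 or more. At this level 44.7% of 8391 genes were higher in the CBTi-seq knock cells and 18% had a log2 ratio of at least 0.25, and 58.8% of 5701 genes were higher in the 3′ library labelled knock, with 46.3% at 0.25 or more. Of the 6 prefoldin subunits, which pass unfolded actin and tubulin to TRiC, 5 were higher and 1 lower in the CBTi-seq knock cells, with a median log2 ratio of 0.22. Pfdn6 had 0.59, Pfdn4 0.42 and Pfdn2 0.24. By the 3′ method 2 of 5 were higher and 3 lower, with a median of -0.03, where Pfdn4 had -1.29, Pfdn1 0.55 and Vbp1 -0.40. Pfdn4 stood at 12.0 CPM in the library labelled knock and 29.3 CPM in the library labelled control, and so passed through the library labelled control alone.

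The phosducin-like cofactors, which bind TRiC and adjust its folding of clients, showed no shared direction in CBTi-seq. Pdcl, the cofactor for G protein beta subunits, had a log2 ratio of 0.58 (0.38 to 0.78), while Pdcl3 had -0.09 and Txndc9 -0.08. The same 3 genes had 3′ ratios of -0.37, -0.07 and -0.25. Of the 5 tubulin cofactors, which take tubulin chains after TRiC has released them, 4 were higher and 1 lower in CBTi-seq, with a median of 0.24. Tbcb had 0.56, Tbca 0.37 and Tbcc 0.24. Of 4 at this level by the 3′ method, 3 were higher in the library labelled knock, with Tbce at 0.91 and Tbcc at 0.63, but Tbcb at -0.33. Tbce was under 20 CPM in the library labelled control and so passed through the library labelled knock alone.

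The cytoskeletal clients gave the widest gap between the methods of these lists. In CBTi-seq 8 of 9 actin and tubulin genes were higher in the knock cells, with a median log2 ratio of 0.17, close to that of the TRiC subunits. That median is the ratio of Actb, which had 5017 counts over the 10 knock columns, where no gene passed 638 counts in a column. Levels as high as that of Actb may be held down by this limit, and its part in the gap between the methods was not tested. Tubb4b had 0.33, Tubb5 0.28 and Tubb2a 0.28. All 8 of the 8 at this level by the 3′ method were higher in the library labelled knock, with a median of 1.37, against 0.12 for the TRiC subunits. Tubb2a had 2.04, Tuba1c 1.56 and Tubb4b 1.49. Tubulin genes share long stretches of coding sequence, so counts may be split between them. Tuba1a had no count in either 3′ library and 224.7 CPM in the CBTi-seq knock cells, against 221.9 CPM in the control cells.

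Of 11 other clients, 4 were higher and 7 lower in CBTi-seq, with a median of -0.10. Ccne1, the cyclin that drives entry into S phase, had the largest ratio of the list at 0.83 (0.56 to 1.11). For Ccne1, 6 of 10 knock columns were above the control median. Its column medians were 42.0 CPM in the knock cells and 33.1 CPM in the control cells. Next came Mlst8, a subunit of the mTOR complexes, at 0.60, and Vhl, a ubiquitin ligase subunit, at -0.40. Mlst8 passed through the knock cells alone, with 26.2 CPM there and 17.3 CPM in the control cells. Of 6 at this level by the 3′ method, 4 were higher in the library labelled knock, with the mitotic genes Plk1 at 2.36 and Cdc20 at 2.21, and Stat3 at 1.21. Plk1 (52.9 CPM in the library labelled knock and 10.3 CPM in the library labelled control) and Cdc20 (73.1 and 15.8 CPM) passed through the library labelled knock alone. Ccne1 lay just outside, at 34.3 CPM in the library labelled knock and 5.24 CPM in the library labelled control. The mitochondrial chaperonin genes Hspd1 and Hspe1 were higher in CBTi-seq, at 0.31 and 0.18, and lower in the 3′ library labelled knock, at -0.45 and -0.36. Of the cytosolic Hsp70 and Hsp90 genes, 7 of 9 were higher in CBTi-seq, with a median of 0.12. Hsph1 led at 0.35, with 5 of 10 knock columns above the control median, then Dnaja1 at 0.21 and Dnajb1 at 0.20. Of 8 at this level by the 3′ method, 7 were higher in the library labelled knock, with a median of 0.73, led by Hsp90aa1 at 1.20 and Hsp90ab1 at 1.08, with Dnajb1 at -1.12. The paralogs and relatives of the subunits, Cct6b, Cct8l1, Mkks, Bbs10 and Bbs12, all lay under 20 CPM in both methods.

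**Figure D5:**
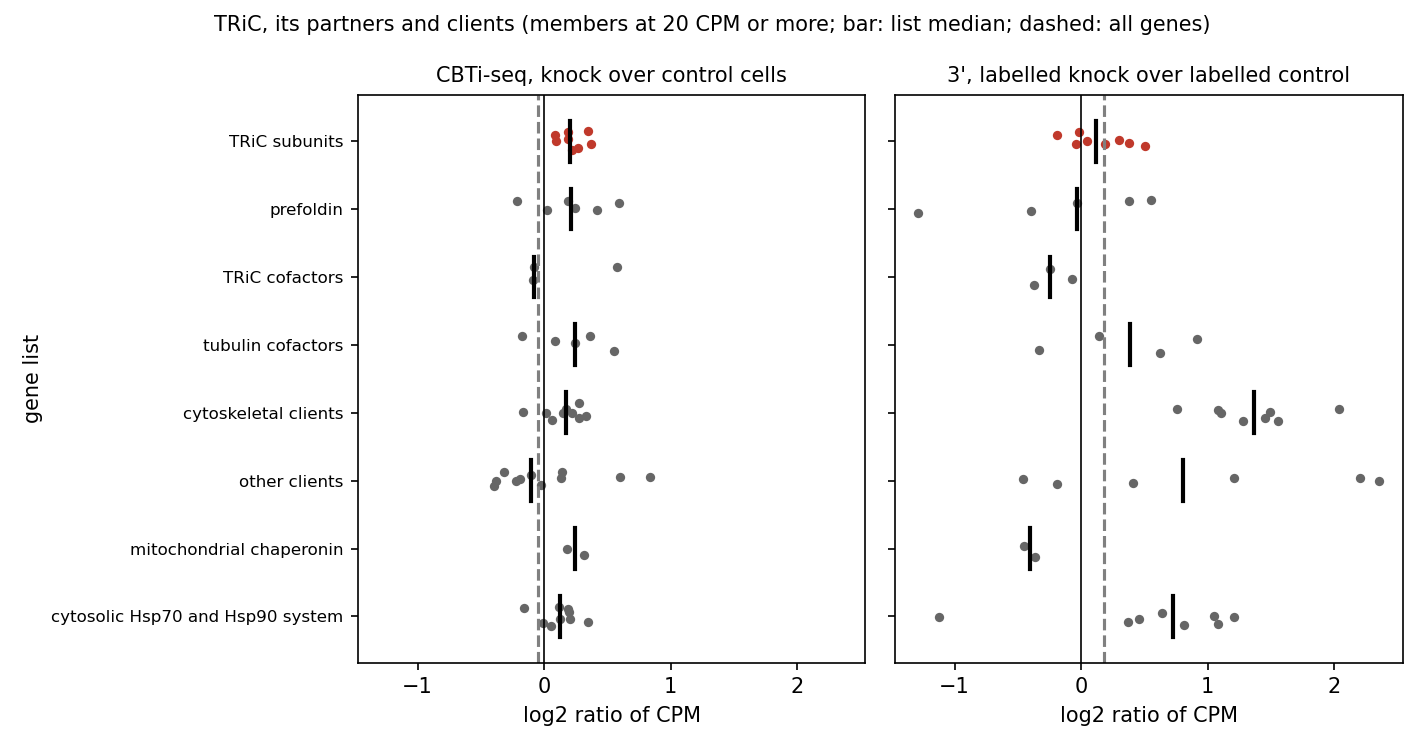
Log2 ratio of knock over control for TRiC subunits (red) and for the partners and clients with a mean of 20 CPM or more (grey), in CBTi-seq on the left and in the 3′ libraries by label on the right; each point is a gene, black bars are list medians and the dashed line is the median of all genes. The cytoskeletal clients have medians of 0.17 in CBTi-seq and 1.37 in the 3′ libraries, while the TRiC subunits have 0.20 and 0.12.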

How the data were processed

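All deposited values are raw counts, by gene symbol for CBTi-seq (whose table name refers to UMIs) and by Ensembl ID for the 3′ method. Per the submitters' processing notes, the tools included STAR 2.7.11b, Picard and FastQC, and 2 builds are listed, GRCm38 and GRCh38, with no role stated. How reads were counted, with or without strand, and whether 3′ counts are UMIs, the sources used here do not say. GENCODE vM21 named 55141 of the 3′ IDs, leaving 261 without a match. Columns of a group were added up and scaled to all gene counts (CPM). With 3 counts as the floor, the limit was 0.855 and 0.777 CPM in the CBTi-seq knock and control cells, and 0.327 and 0.424 CPM in the 3′ libraries labelled knock and control. Intervals are exact 95% ones. No group has replicates, since columns of both CBTi-seq groups come from a single sample and each 3′ library is 1 sample, and no p-value was computed. The members and lists were chosen with earlier results of these data known. Of each list, up to 3 genes with a mean of knock and control of 20 CPM or more and the largest ratios are named per method, together with genes that overlap or copy a member and the 5 genes most alike in pattern. Alternatives were other scalings (TMM with edgeR 4.0.16, median-of-ratios with DESeq2 1.42.0), thinning to 50000 counts, other lengths, UMI collision corrections and leaving out columns. Copies were searched with BLAST 2.17.0. Other steps used R 4.3.3, matplotlib 3.10.9, scipy 1.17.1, pandas 2.3.3, numpy 2.4.6 and Python 3.11.15. The calculation was tested on simulated counts.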

Additional observations from a re-analysis of the deposited data

Results flagged for a closer look

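In the CBTi-seq control cells, column 1 stood far from the other 9 for 3 subunits. It held 41570 counts, the fewest of any column. Its Cct2 level was 120.3 CPM, with the nearest other column at 281.9 CPM. Its Cct4 level was 793.8 CPM, with the nearest at 546.9 CPM, and its Cct8 level was 697.6 CPM, with the nearest at 539.7 CPM. These were 3 of 36 groups of columns looked at by the same test of a single extreme value, which chance exceeds in about 1 group in 20. That rate is for separate groups of values with equal spread, while all 3 flags come from this 1 shallow column. Its values rest on 5 counts for Cct2, 33 for Cct4 and 29 for Cct8, so its counting error is larger. Whether the depth of this column accounts for the values was not tested.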

How the results depend on the processing

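All 8 subunits were higher in the CBTi-seq knock cells under every scaling, filter and column left out. The summed log2 ratio there was 0.17 with the mean of the columns' CPM and 0.19 in columns of 150000 to 400000 counts (7 knock and 6 control, chosen after seeing the data), and 0.19 to 0.25 with 1 column left out. In the 3′ libraries the ratio was 0.019 with TMM factors, 0.017 with totals without mitochondrially encoded and ribosomal protein genes, -0.0011 with median-of-ratios factors, 0.19 after thinning and 0.15 to 0.16 with 1 column left out, and 4 to 6 subunits were higher. Cct8 was at -0.12 with median-of-ratios factors. The highest over the lowest subunit per kb in the CBTi-seq knock and control cells was 1.87 and 1.89 with no length scaling, 3.75 and 3.62 per kb of all exons, 2.43 and 2.85 with collisions among 700 UMIs (chosen after seeing the data), and 2.16 to 2.33 and 2.41 to 2.66 with 1 column left out. The control value was also 2.69 with the mean of the columns' CPM and 2.701 with collisions among UMIs of 5 bases. In the 3′ libraries labelled knock and control it was 9.68 and 10.4, 17.6 and 18.9 under the same length choices, and 12.5 to 13.3 and 13.5 to 14.03 with 1 column left out. The log2 ratio of CBTi-seq over 3′ for knock and control was 0.55 and 0.47 over shared genes, 0.42 and 0.21 without mitochondrially encoded and ribosomal protein genes, 0.68 and 0.62 with collisions among UMIs of 5 bases, and 0.58 to 0.64 and 0.51 to 0.58 with 1 column left out. The causes were not tested beyond what each setting changes. No paired analysis was possible because the labels give no replicate numbers shared between groups.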
